A study of Homo sapiens with 27 samples.

Results

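SW48 cells that had been left without treatment after a long immune challenge were compared with the challenged cells they came from. SW48 is a human colorectal cancer cell line. The withdrawal group holds 3 arrays of challenged SW48 cells that were then cultured for a further 20 cycles with no treatment. The resistant group holds 3 arrays of SW48 cells that had survived 20 cycles with NK-CD16 cells and 1 ug per ml of cetuximab, and the parental group holds 3 arrays of the untreated line. These groups were taken by the treatment named in the sample titles, so the comparison rests on 6 of the 27 arrays of the series. The 3 parental arrays are set beside them. All 17687 genes with a name on the array were tested. The other 18 arrays hold LIM1215 and Caco2, which went through the same scheme and are used here for a test of how the lines differ.

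Cetuximab is an antibody against EGFR, the epidermal growth factor receptor, which drives growth signalling through ERK in colorectal epithelium. Natural killer cells carry CD16, a receptor for the stem of antibodies, and kill cells that an antibody has coated, a process called antibody-dependent cellular cytotoxicity. Activated natural killer cells also release interferon gamma, which raises HLA and immunoproteasome genes in the cells around them. The comparison asks what changed in challenged cells once the challenge had stopped.

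The parental lines were grown from a single clone per the labels' protocols. Nothing in the labels ties the 3 replicates of a group to separate cultures, so p-values rest on the spread between arrays within groups, which may be technical. Levels are deposited values that were read as log2 intensities. A level is called near background when it lies under the 95th percentile of the 612 negative control probe sets of its own array, which was 6.67 to 7.24 on the withdrawal arrays, 7.02 to 7.17 on the resistant arrays and 6.56 to 6.93 on the parental arrays. Between 46.2% and 49.2% of genes were above it on the withdrawal arrays and between 46.6% and 47.4% on the resistant arrays. Differences are withdrawal minus resistant on the log2 scale. Each comes with its standard error (SE) and its adjusted p from the limma fit over all genes. That fit pools the spread within groups over all 3 lines, so an SE can come mostly from another line. For DDIT4 the SD was 0.0992 in SW48 withdrawal cells and 0.0302 in SW48 resistant cells. It was 2.56 in LIM1215 parental cells, and the SE of the SW48 difference was 0.641. A gene is called at an adjusted p under 0.05. Folds against a group near background on all of its arrays are lower bounds, written "at least", taken against the mean background percentile of that group. None is given where both groups are near background.

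The 6 arrays separated by group. Pearson's r over all genes ran from 0.9953 to 0.9957 among the withdrawal arrays, from 0.9951 to 0.9957 among the resistant arrays, and from 0.9832 to 0.9846 between the groups. Of the 17687 genes tested, 3920 were called, or 22.2%, with 1955 higher (11.1%) and 1965 lower (11.1%) in withdrawal cells. Most of these differences were small: 2709 were under 2-fold and 1211 (6.85%) were 2-fold or more, 601 higher (3.4%) and 610 lower (3.45%). In each direction 28 were 16-fold or more. These counts use deposited values and include genes near background, for which a fold is at best a lower bound. GLMP, for example, had a log2 difference of 4.74 but a bound of only 2.34-fold. Raising dim values to background lowered the 2-fold count from 1211 to 768. The median log2 difference over all genes was 0.00797 and the median SE was 0.197. The lowest of the 3 values of one group lay above the highest of the other for 35.5% of all genes, 18.1% with withdrawal cells higher and 17.4% with them lower. Statements that groups did not overlap are to be read against these shares. Counts of list members called are to be read against the 11.1% of all genes called in each direction.

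**Figure D1:**
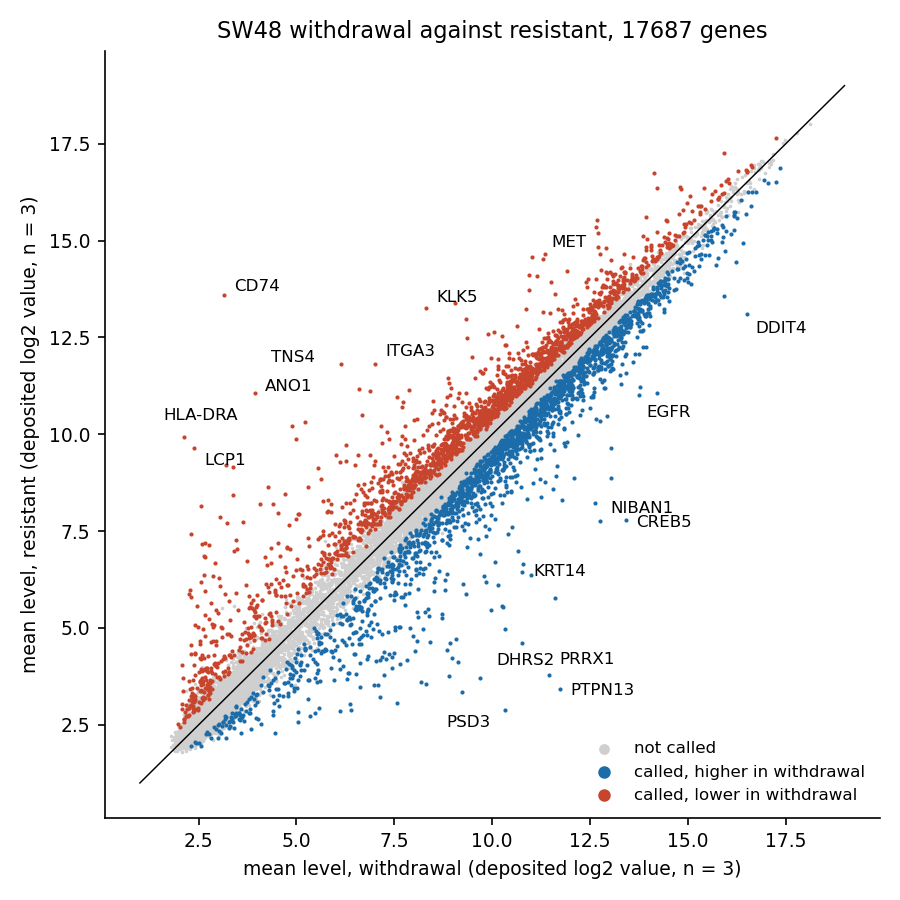
Mean deposited log2 value of each of 17687 genes in SW48 withdrawal cells (x axis) and SW48 resistant cells (y axis), 3 arrays each. Blue points are the 1955 genes called higher and red points the 1965 called lower in withdrawal cells, and the line marks equal levels; the points farthest from it are CD74, HLA-DRA and LCP1 above and PTPN13, PRRX1 and PSD3 below.

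The label of the cells held in part. Of 11 colorectal epithelial markers, 6 were above background on every withdrawal and resistant array, and 7 on every parental array. Between withdrawal and resistant cells, 3 of the 11 were called higher (27.3%) and 3 lower (27.3%). KRT19 rose by 2.59-fold (adjusted p = 8.8e-08) and KRT18 fell by 2.11-fold (adjusted p = 2.13e-08). EPCAM, a surface adhesion molecule of epithelia, averaged 15.30 ± 0.11 in withdrawal cells and 15.34 ± 0.116 in resistant cells (SD, n = 3 each), with an adjusted p of 0.856. CDX2, the transcription factor of intestinal identity, was at 12.41, 12.40 and 12.57 on the withdrawal arrays and 11.72, 11.99 and 12.01 on the resistant arrays, and its rise was small (log2 difference 0.55, SE 0.108, adjusted p = 0.000487). Its withdrawal level stayed under that of parental cells (log2 difference -0.50, adjusted p = 0.00877). VIL1, CDH17, LGALS4 and GPA33, also defining markers of colon epithelium, were near background on all 9 SW48 arrays. The 12 markers of fibroblasts and endothelium were near background on all of them too.

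A set of genes near background in resistant cells was expressed in withdrawal cells, in most cases with parental cells above background too. PTPN13, a tyrosine phosphatase that binds the tail of the death receptor FAS, read 11.69, 11.73 and 11.79 on the withdrawal arrays, 3.25, 3.41 and 3.65 on the resistant arrays and 12.21, 11.68 and 12.22 on the parental arrays. The withdrawal and parental values lie far above the resistant ones, and the groups did not overlap (at least 25.2-fold higher in withdrawal cells; log2 difference 8.30, SE 0.225, adjusted p = 1.33e-17). PRRX1, a homeobox transcription factor of mesenchyme, showed the same split, with 11.50, 11.45 and 11.38 on the withdrawal arrays, 3.77, 3.94 and 3.69 on the resistant arrays and 10.86, 10.64 and 10.70 on the parental arrays (at least 20.6-fold higher; log2 difference 7.64, SE 0.255, adjusted p = 4.41e-16). PSD3, an exchange factor for the small GTPase ARF6, stood at 10.19, 10.51 and 10.29 on the withdrawal arrays, 2.38, 2.53 and 3.72 on the resistant arrays and 10.69, 10.63 and 10.83 on the parental arrays (at least 9.51-fold higher; log2 difference 7.46, SE 0.292, adjusted p = 8.1e-15). The third resistant array is the highest of its group for PSD3 and is still near background.

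Other genes of this kind encode matrix, adhesion and signalling proteins. NPNT, a matrix ligand of integrins, read 9.64, 9.77 and 9.64 on the withdrawal arrays and 3.16, 3.47 and 4.46 on the resistant arrays, and GRB10, an adaptor that restrains the insulin receptor, read 10.45, 10.29 and 10.21 on the withdrawal arrays and 5.03, 4.77 and 5.08 on the resistant arrays. Both were near background on the 3 resistant arrays, so the rise was at least 6.07-fold for NPNT (adjusted p = 4.24e-16) and at least 9.43-fold for GRB10 (adjusted p = 3.99e-11). The chemerin receptor CMKLR2 rose by at least 22.9-fold, and the short-chain dehydrogenase DHRS2 by at least 12.8-fold. The serine protease PRSS12 rose by at least 4.43-fold, the kinase regulator MOB3B by at least 9.11-fold and the protocadherin PCDH19 by at least 3.51-fold. CREB5, a transcription factor of the CREB family, and NIBAN1, a protein induced by cell stress, kept a measurable level in resistant cells. CREB5 was at 13.56, 13.32 and 13.35 on the withdrawal arrays and 8.04, 7.62 and 7.66 on the resistant arrays, a 49.7-fold rise (log2 difference 5.64, SE 0.293, adjusted p = 1.07e-12). NIBAN1 was at 12.67, 12.81 and 12.78 on the withdrawal arrays and 8.09, 7.54 and 7.66 on the resistant arrays, a 31.7-fold rise (log2 difference 4.99, SE 0.392, adjusted p = 1.49e-09). CDH11, a cadherin of mesenchymal cells, the lysosomal membrane protein GLMP and PBDC1 complete the 15 largest rises, with bounds between 2.34-fold for GLMP and 4.16-fold for PBDC1.

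In all, 131 genes were near background on the 3 resistant arrays and above it on the 3 withdrawal arrays. Of these, 113 were called and 60 of those differed by 4-fold or more in deposited values. Of these 60 genes, 55 were above background on all 3 parental arrays and 2 were near background on all 3. In the other direction, 64 genes were above background on the 3 resistant arrays and near it on the 3 withdrawal arrays. Of these, 63 were called and 38 of those differed by 4-fold or more. Of these 38, 30 were near background on all 3 parental arrays and 3 were above it on all 3.

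**Figure D2:**
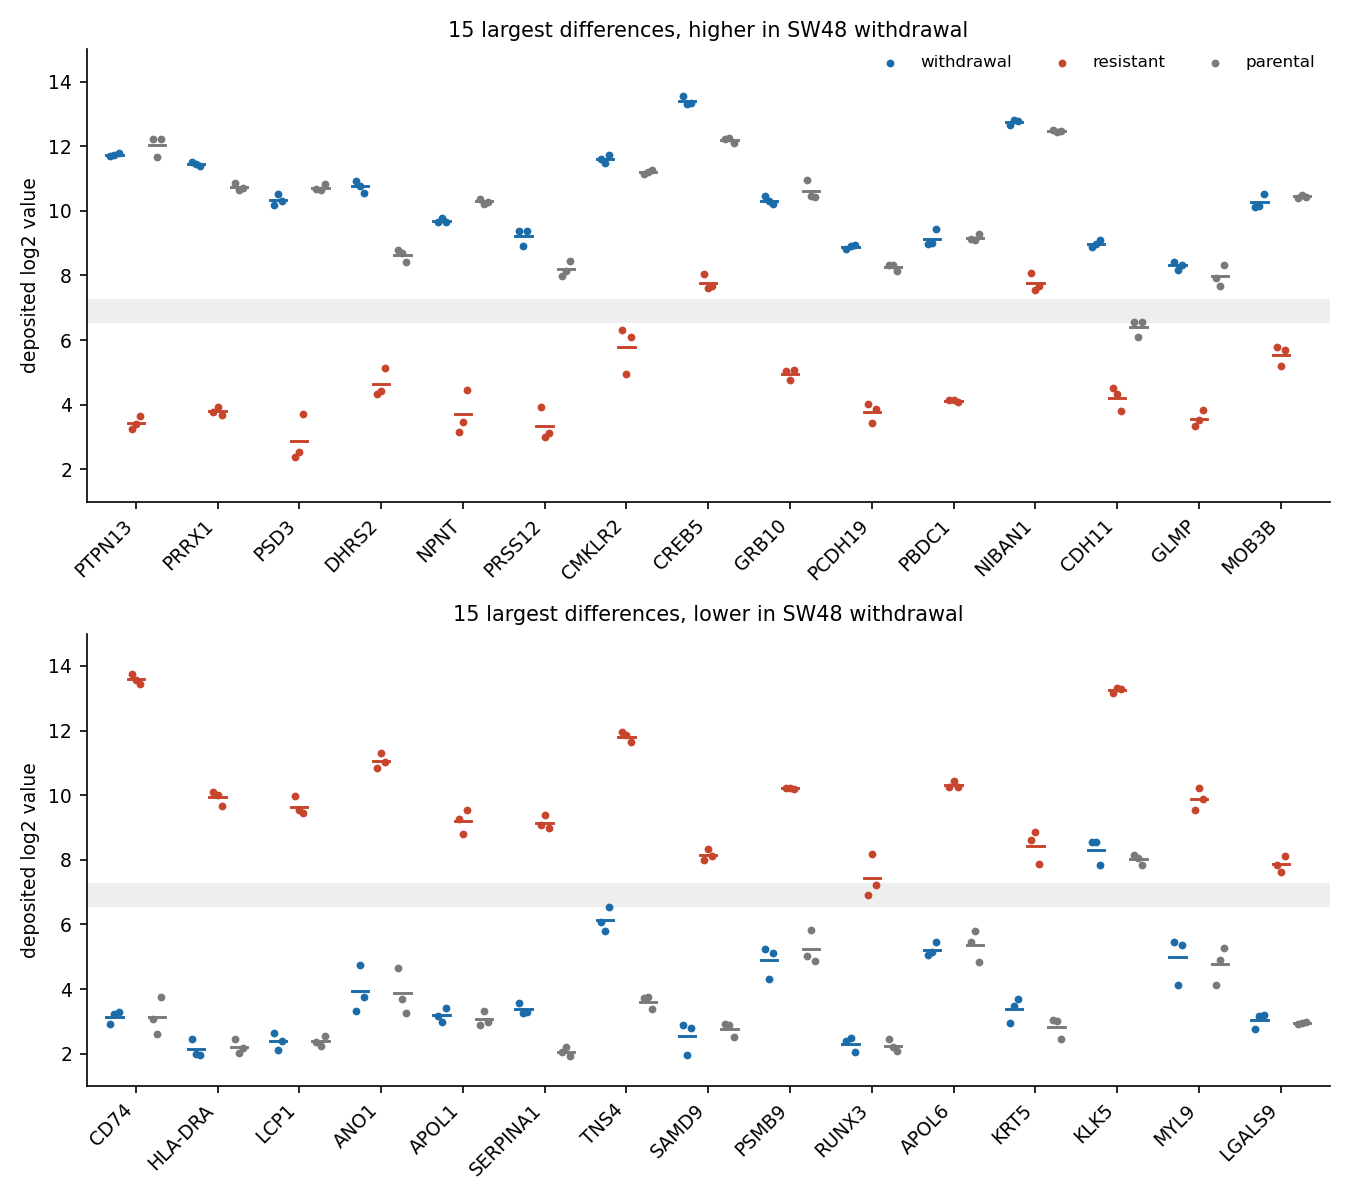
Deposited log2 value on each array (points) and group mean (bars) for the 15 genes with the largest rise (top) and the 15 with the largest fall (bottom) in SW48 withdrawal against resistant cells, with parental cells at the right of each gene, 3 arrays a group. The grey band spans the background percentile of the 9 arrays; among the rises CREB5 and NIBAN1 alone have resistant values above it, and among the falls KLK5 alone has withdrawal values above it.

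Genes of HLA class II presentation were among the largest falls. CD74, the chaperone of HLA class II molecules, read 2.91, 3.22 and 3.29 on the withdrawal arrays, 13.76, 13.56 and 13.45 on the resistant arrays and 3.08, 2.61 and 3.74 on the parental arrays. Withdrawal and parental cells were both near background and resistant cells among the bright genes of the array (at least 104-fold lower in withdrawal cells; log2 difference -10.45, SE 0.237, adjusted p = 8.5e-19). HLA-DRA, the alpha chain of the class II molecule HLA-DR, read 2.45, 2.00 and 1.95 on the withdrawal arrays, 10.11, 10.00 and 9.68 on the resistant arrays and 2.45, 2.03 and 2.18 on the parental arrays (at least 8.25-fold lower; log2 difference -7.80, SE 0.219, adjusted p = 2.34e-17). Of the 14 class II genes measured, 8 were called lower and 0 higher, with a median log2 difference of -0.893. CIITA, the master activator of class II transcription, averaged 2.30 ± 0.146 in withdrawal cells and 4.32 ± 0.616 in resistant cells, both near background (log2 difference -2.02, SE 0.239, adjusted p = 9.41e-07). Since 11 of the 14 were near background in both groups, the count falls to 2 when genes near background in both are left out or when values under background are set to it. RFX5, a DNA-binding partner of CIITA, was expressed in both groups at 9.45 ± 0.153 in withdrawal cells and 9.31 ± 0.215 in resistant cells (adjusted p = 0.673).

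Class I presentation fell across most of its genes. Class I molecules show peptides cut by the immunoproteasome and carried by the TAP transporter. Of 18 genes measured, 16 were called lower and 0 higher in withdrawal cells, with a median of -1.83 beside 0.00797 over all genes. PSMB9, an immunoproteasome subunit, was at 5.23, 4.30 and 5.13 on the withdrawal arrays and 10.21, 10.22 and 10.20 on the resistant arrays, with no overlap (at least 10.1-fold lower; log2 difference -5.33, SE 0.425, adjusted p = 1.84e-09). TAPBP, which loads peptides onto class I, was at 11.12, 10.94 and 11.34 on the withdrawal arrays and 14.01, 14.13 and 14.12 on the resistant arrays (7.76-fold lower; log2 difference -2.96, SE 0.149, adjusted p = 6e-13). For TAPBP every withdrawal value lies below every resistant value. PSMB10, another immunoproteasome subunit, fell by at least 2.09-fold (adjusted p = 3.78e-07). ERAP2, which trims peptides, fell, with a log2 difference of -2.72 (adjusted p = 3.49e-09) and was above background on 1 of the 3 withdrawal arrays. B2M, the light chain of class I, was at 11.61, 11.55 and 11.31 on the withdrawal arrays and 14.08, 13.79 and 13.91 on the resistant arrays (5.41-fold lower; log2 difference -2.44, SE 0.146, adjusted p = 1.35e-11). HLA-C fell by 3.77-fold (adjusted p = 6.61e-07). Those that did not pass were PDIA3, a chaperone of the endoplasmic reticulum (log2 difference -0.08, adjusted p = 0.703), as well as NLRC5, an activator of class I genes that was near background in both groups. The HLA genes are close relatives, and probes for one can read another, so values of single HLA genes are uncertain.

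Interferon-stimulated response elements were sought in the promoters because class I and antiviral genes, many of which are known to carry them, moved together. The window runs from 250 bases before to 50 bases after the first listed start of each gene in RefSeq on GRCh38.p14, and 14250 genes had one. The motif, searched as GAAA, any 2 bases and GAAA, or its reverse complement TTTC, any 2 bases and TTTC, stood in 3.11% of these windows. It stood in 9.3% of the 484 genes called lower by 2-fold or more, in 1.85% of the 487 called higher by 2-fold or more and in 3.12% of the genes not called. Of 15 class I genes with a window, all called lower, 8 held it. In the antiviral list it stood in 10 of 15 genes called lower (66.7%) and in 12 of 18 not called (66.7%). So there it did not go with the call of the main fit. That call depends on the fit: of all 39 antiviral genes, 16 were called lower here and 7 to 29 under the alternatives. Among interferon gamma response genes it stood in 3 of 3 called lower and in 2 of 6 not called. The stretches below show the match in capitals for 4 genes that fell, on the strand of the gene, from 5′ to 3′.
B2M: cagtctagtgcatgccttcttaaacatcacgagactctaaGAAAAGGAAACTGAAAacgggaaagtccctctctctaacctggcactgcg
TAPBP: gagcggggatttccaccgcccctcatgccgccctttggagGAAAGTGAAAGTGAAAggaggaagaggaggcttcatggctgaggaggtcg
PSMB10: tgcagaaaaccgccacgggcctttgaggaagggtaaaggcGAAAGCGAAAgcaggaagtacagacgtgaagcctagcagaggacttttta
SAMD9: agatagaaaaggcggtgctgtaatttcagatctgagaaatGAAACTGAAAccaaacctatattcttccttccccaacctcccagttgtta
The B2M stretch is chr15:44711333-44711422 on the plus strand. TAPBP is chr6:33314049-33314138 on the minus strand. PSMB10 is chr16:67936822-67936911 on the minus strand and SAMD9 is chr7:93118066-93118155 on the minus strand. B2M and TAPBP each hold 2 overlapping matches, and the first B2M match starts at position -144 from the gene's start. A match is a description of these letters and not a bound site. None of the 11 class II genes with a window held the motif in it.

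Interferon gamma response genes were lower in withdrawal cells in 11 of 17 cases and higher in 0, with a median of -1.23. APOL1, a lipid-binding protein of innate defence, was at 3.18, 2.99 and 3.40 on the withdrawal arrays and 9.27, 8.81 and 9.54 on the resistant arrays (at least 5-fold lower; log2 difference -6.01, SE 0.288, adjusted p = 2.57e-13). APOL6 of the same family was at 5.04, 5.15 and 5.45 on the withdrawal arrays and 10.25, 10.44 and 10.27 on the resistant arrays (at least 10.8-fold lower; log2 difference -5.11, SE 0.319, adjusted p = 2.88e-11). Withdrawal values of both were near background on all 3 arrays. GBP2, an interferon-induced GTPase, averaged 3.02 ± 0.315 in withdrawal cells and 6.30 ± 0.09 in resistant cells (log2 difference -3.28, SE 0.272, adjusted p = 3.55e-09), near background in both. The chemokines CXCL9, CXCL10 and CXCL11, textbook targets of interferon gamma, were near background on all 9 arrays. WARS1, a tryptophan tRNA ligase, was bright in both groups and did not pass, with a log2 difference of 0.21 (adjusted p = 0.263). The count of lower genes was 4 when dim values were raised to background, since 12 of the 17 genes were near background in both groups.

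Among 39 antiviral genes of the type I interferon response, 16 were called lower and 1 higher, with a median of -1.10. SAMD9, a restriction factor for viruses, was at 2.90, 1.97 and 2.79 on the withdrawal arrays and 7.99, 8.33 and 8.11 on the resistant arrays (at least 2.39-fold lower; log2 difference -5.59, SE 0.535, adjusted p = 3.76e-08). MX1, an antiviral GTPase, was at 6.15, 6.36 and 5.81 on the withdrawal arrays and 9.17, 9.75 and 8.97 on the resistant arrays (at least 5.31-fold lower; log2 difference -3.19, SE 0.743, adjusted p = 0.00253). IFIT1, with 3.20, 2.66 and 3.41 on the withdrawal arrays and 5.60, 5.20 and 5.72 on the resistant arrays, did not pass although its groups did not overlap, and it was near background on all of these arrays (log2 difference -2.42, SE 0.97, adjusted p = 0.0821). The spread that the fit pools for these genes comes from all 27 arrays. When the 9 SW48 arrays were fitted alone, IFIT1 passed and 29 of the 39 were called lower, and 7 were when values under background were set to it. The gene called higher was LAMP3, a lysosomal membrane protein (1.20, adjusted p = 0.00672).

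Of 17 receptor and signalling genes of the interferon pathway, 4 were called lower and 1 higher. IRF9, a subunit of the factor that binds the response element, was at 6.81, 6.12 and 5.86 on the withdrawal arrays and 9.66, 9.58 and 9.94 on the resistant arrays (log2 difference -3.46, SE 0.816, adjusted p = 0.00278), above background on 1 of the 3 withdrawal arrays. IRF1, which interferon gamma induces, was at 8.14, 8.13 and 8.32 on the withdrawal arrays and 9.50, 9.55 and 9.86 on the resistant arrays (2.72-fold lower; log2 difference -1.44, SE 0.249, adjusted p = 0.00012). The kinase JAK1 moved the other way, with 11.84, 11.93 and 11.89 on the withdrawal arrays and 11.07, 10.85 and 10.82 on the resistant arrays (1.97-fold higher; log2 difference 0.98, SE 0.103, adjusted p = 1.82e-07). The receptor chains IFNGR1 and IFNGR2 had log2 differences of 0.49 and -0.27 and did not pass (adjusted p = 0.0901 and 0.102).

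Transcripts of genes listed as natural killer cell markers moved with the interferon and HLA genes. Of 30 marker genes, 16 were called lower and 1 higher in withdrawal cells, with a median of -0.892, and 22 were near background in both groups. GZMA, a granule protease, was at 2.60, 2.35 and 2.79 on the withdrawal arrays, 8.27, 6.52 and 6.68 on the resistant arrays and 2.57, 2.89 and 2.36 on the parental arrays, so the first resistant array stands above the other 2 and is the only 1 above background (log2 difference -4.58, SE 0.329, adjusted p = 3.24e-10). LCP1, an actin-bundling protein of leukocytes, was at 2.65, 2.12 and 2.39 on the withdrawal arrays, 9.98, 9.53 and 9.44 on the resistant arrays and 2.35, 2.24 and 2.56 on the parental arrays (at least 6.8-fold lower; log2 difference -7.26, SE 0.253, adjusted p = 9.4e-16). IL2RG, a receptor chain of leukocytes, fell by at least 1.77-fold (adjusted p = 5.75e-08). It averaged 10.07 in parental Caco2 and 7.97 in parental LIM1215 cells, which had no challenge, so IL2RG is not particular to natural killer cells here. CCL5, a chemokine of lymphocytes, fell by at least 1.24-fold (adjusted p = 1.94e-05) and was above background on 1 of the 3 resistant arrays. NCAM1, the marker CD56, fell by at least 1.81-fold (adjusted p = 3.08e-13). FCGR3A, which encodes CD16, averaged 2.40 ± 0.297 in withdrawal cells and 4.34 ± 0.769 in resistant cells, near background in both (log2 difference -1.95, SE 0.349, adjusted p = 0.000185). The markers CD247, CD2, KLRB1 and PRF1 were near background on all 9 arrays and did not pass.

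PTPRC, the pan-leukocyte gene CD45, went against the rest of the list, with 9.34 ± 0.14 in withdrawal cells, 5.87 ± 0.114 in resistant cells and 7.72 ± 0.197 in parental cells (mean ± SD, n = 3 each). It was above background in withdrawal and parental cells and near it in resistant cells (at least 4.79-fold higher in withdrawal cells; log2 difference 3.47, SE 0.185, adjusted p = 1.68e-12). Without PTPRC, the linear values of the other 29 markers summed to 230 to 255 on the withdrawal arrays, 1850 to 2640 on the resistant arrays and 234 to 241 on the parental arrays. Without it, 3 to 6 markers were above background on a resistant array and 0 on a withdrawal or parental array. The part of such transcripts in the falls of CD74, HLA-DRA and the interferon genes was not tested. The RNA came from whole cell pellets, in which fewer cells of a type and less RNA per cell cannot be told apart. With values under background raised to it, 2 markers are called lower, and GZMA, CCL5 and IL2RG no longer pass.

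**Figure D3:**
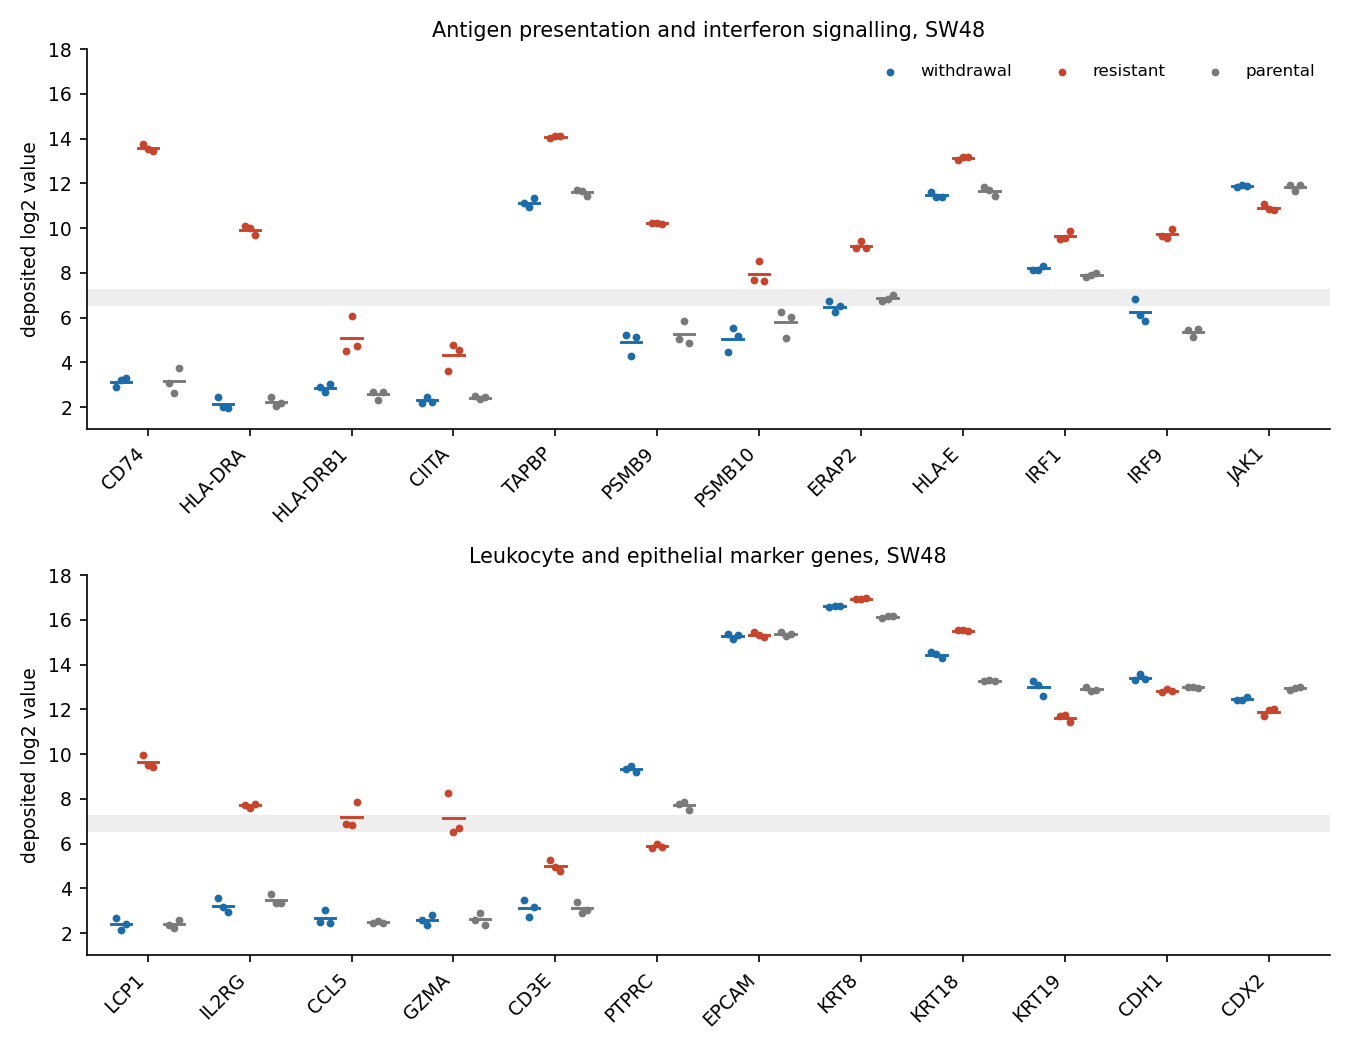
Deposited log2 value on each array (points) and group mean (bars) in SW48 withdrawal, resistant and parental cells, 3 arrays a group, for antigen presentation and interferon genes (top) and for leukocyte and epithelial markers (bottom). The grey band spans the background percentile of the arrays; withdrawal values sit beside parental ones for CD74, HLA-DRA, PSMB9, LCP1 and GZMA, and PTPRC is highest in withdrawal cells.

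Surface ligands that natural killer cells read were more often called lower than higher in the main fit. Of 20 activating ligands, 8 were called lower (40%) and 3 higher (15%). Of 16 ligands of inhibitory receptors, 7 were called lower (43.8%) and 0 higher. Over all genes, 11.1% were called in each direction, so the higher share of activating ligands was near that of all genes. MICB, which NKG2D recognises on stressed cells, was at 6.52, 6.80 and 6.72 on the withdrawal arrays and 7.88, 7.91 and 8.07 on the resistant arrays (log2 difference -1.27, SE 0.199, adjusted p = 3.88e-05), above background on 1 of the 3 withdrawal arrays. PVR, a ligand of DNAM-1, rose by 2.05-fold (adjusted p = 1.95e-06). LGALS9, a galectin bound by the inhibitory receptor TIM-3, was at 2.78, 3.18 and 3.20 on the withdrawal arrays and 7.83, 7.63 and 8.12 on the resistant arrays (at least 1.96-fold lower; log2 difference -4.80, SE 0.55, adjusted p = 5.67e-07). That call ends when dim values are raised to background (adjusted p = 0.239). HLA-E, which engages the inhibitory receptor NKG2A, was at 11.61, 11.41 and 11.39 on the withdrawal arrays and 13.06, 13.18 and 13.16 on the resistant arrays (3.17-fold lower; log2 difference -1.66, SE 0.242, adjusted p = 1.47e-05). CD274, which encodes PD-L1, did not pass and was near background in both groups (adjusted p = 0.08), although it passed under 5 alternatives. With genes near background left out or set to it, the inhibitory count is 3 or 4 and the activating count of lower genes is 4.

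Named genes of the death pathway that killer cells trigger moved in both directions. FAS, the receptor of FAS ligand, was at 7.82, 7.89 and 7.97 on the withdrawal arrays and 9.53, 9.51 and 9.49 on the resistant arrays, with no overlap (3.07-fold lower in withdrawal cells; log2 difference -1.62, SE 0.164, adjusted p = 9.7e-08). CASP8, the initiator caspase below it, was at 10.81, 11.20 and 11.25 on the withdrawal arrays and 9.38, 8.97 and 8.99 on the resistant arrays (3.93-fold higher; log2 difference 1.97, SE 0.128, adjusted p = 5.39e-11). TNFRSF10B, a receptor of TRAIL, was at 13.32, 13.33 and 13.49 on the withdrawal arrays and 12.07, 11.93 and 12.05 on the resistant arrays (2.57-fold higher; log2 difference 1.36, SE 0.188, adjusted p = 7.95e-06). With PTPN13, described above, 5 of 18 genes of death receptors and granzyme defence were called higher (27.8%) and 2 lower (11.1%). The lower share equals that of all genes (11.1%).

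EGFR, the target of cetuximab, was higher after withdrawal, with 13.31, 13.27 and 13.30 on the withdrawal arrays, 11.22, 11.19 and 11.49 on the resistant arrays and 13.37, 13.64 and 13.67 on the parental arrays (3.98-fold; log2 difference 1.99, SE 0.136, adjusted p = 1.26e-10). The groups did not overlap. Against parental cells the difference was -0.27 (adjusted p = 0.353). Among 11 ErbB receptors, ligands and regulators, 2 were called higher and 2 lower. TGFA, a ligand of EGFR, was at 8.80, 8.85 and 8.83 on the withdrawal arrays and 10.32, 10.33 and 10.72 on the resistant arrays (3.1-fold lower; log2 difference -1.63, SE 0.212, adjusted p = 3.45e-06). ERRFI1, an inhibitor of the receptor's kinase, was at 14.81, 14.89 and 14.69 on the withdrawal arrays and 16.33, 16.43 and 16.41 on the resistant arrays (3.01-fold lower; log2 difference -1.59, SE 0.174, adjusted p = 2.89e-07). LRIG1, which promotes breakdown of ErbB receptors, rose by 1.68-fold (adjusted p = 3.55e-05). ERBB3, EREG and HBEGF did not pass, with log2 differences of 0.08, 0.08 and 0.50.

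ERK output genes gave no common direction, with 6 of 19 called higher and 4 lower and a median of 0.138. SPRY1, a feedback inhibitor of the pathway, was at 10.20, 10.91 and 10.40 on the withdrawal arrays and 7.52, 8.01 and 7.28 on the resistant arrays (7.45-fold higher; log2 difference 2.90, SE 0.214, adjusted p = 5.2e-10). ETV5, an ERK-driven transcription factor, was at 13.40, 13.34 and 13.47 on the withdrawal arrays and 11.61, 11.61 and 11.51 on the resistant arrays (3.55-fold higher; log2 difference 1.83, SE 0.409, adjusted p = 0.00176). DUSP5, an ERK phosphatase, averaged 6.66 ± 0.25 in withdrawal cells and 8.59 ± 0.547 in resistant cells (at least 3.25-fold lower; log2 difference -1.93, SE 0.536, adjusted p = 0.0102), and without resistant replicate 3 its adjusted p is 0.0517. Without that array 2 genes of the list are called lower in place of 4. EGR1 and FOSL1, immediate targets of ERK signalling, had log2 differences of 0.14 and -0.03 and did not pass.

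Outside the ErbB family, MET, AXL and IGFBP4 were the named falls. MET, the receptor of hepatocyte growth factor, was at 11.18, 11.43 and 11.31 on the withdrawal arrays, 14.61, 14.52 and 14.41 on the resistant arrays and 12.21, 11.84 and 12.27 on the parental arrays (9.24-fold lower in withdrawal cells; log2 difference -3.21, SE 0.107, adjusted p = 4.41e-16). Its withdrawal values lie below both other groups, and the difference from parental cells was -0.80 (adjusted p = 5.62e-05). AXL, a receptor kinase bound by GAS6, was at 7.11, 7.22 and 7.59 on the withdrawal arrays and 10.18, 10.27 and 9.76 on the resistant arrays (6.79-fold lower; log2 difference -2.76, SE 0.3, adjusted p = 2.68e-07). IGFBP4, a carrier of insulin-like growth factors, was at 9.26, 9.39 and 9.31 on the withdrawal arrays and 12.94, 12.98 and 13.02 on the resistant arrays (12.7-fold lower; log2 difference -3.66, SE 0.214, adjusted p = 9.07e-12). In the list of 28 insulin and growth factor genes, 6 were called lower (21.4%) and 3 higher (10.7%), GRB10 among the higher. The higher share is near the 11.1% of all genes called higher, and the list median was -0.0454.

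Several of the large falls were of adhesion, cytoskeletal, channel and transcription factor genes. Of 20 genes of integrins, laminins and focal adhesion, 5 were called higher, NPNT among them, and 6 lower, or 3 higher without withdrawal replicate 1 or 2 or resistant replicate 2. TNS4, a tensin of focal adhesions, was at 6.09, 5.80 and 6.55 on the withdrawal arrays, 11.95, 11.86 and 11.64 on the resistant arrays and 3.71, 3.76 and 3.37 on the parental arrays, near background in withdrawal and parental cells (at least 30.5-fold lower than in resistant cells; log2 difference -5.67, SE 0.23, adjusted p = 1.37e-14). ITGA3, the laminin-binding integrin chain, was at 7.09, 6.77 and 7.16 on the withdrawal arrays and 11.92, 11.93 and 11.58 on the resistant arrays, above background on 2 of the 3 withdrawal arrays (log2 difference -4.80, SE 0.251, adjusted p = 1.18e-12). RUNX3, a transcription factor of lymphocytes and epithelium, fell by at least 1.46-fold (adjusted p = 4.29e-13, and 0.0762 with dim values raised to background), with 2 of the 3 resistant arrays above background. MYL9, a myosin light chain, fell by at least 7.98-fold (adjusted p = 1.25e-11). ANO1, a calcium-activated chloride channel, was at 3.33, 4.74 and 3.74 on the withdrawal arrays and 10.83, 11.31 and 11.03 on the resistant arrays (at least 18-fold lower; log2 difference -7.12, SE 0.425, adjusted p = 1.25e-11). CCN1, a matrix protein induced by YAP, was at 11.55, 11.64 and 11.60 on the withdrawal arrays, 13.66, 13.59 and 13.61 on the resistant arrays and 10.27, 10.09 and 9.78 on the parental arrays, with withdrawal cells between the other groups (4.06-fold lower than in resistant cells; log2 difference -2.02, SE 0.296, adjusted p = 1.6e-05). PMEPA1, a target of TGF-beta, moved the other way, with 9.28, 8.84 and 8.42 on the withdrawal arrays and 3.40, 4.67 and 5.25 on the resistant arrays (at least 3.41-fold higher; log2 difference 4.41, SE 0.33, adjusted p = 6.5e-10). Of 27 mesenchymal and TGF-beta response genes, 6 were called higher and 3 lower, the lower share equal to that of all genes (11.1%), and 16 were near background in both groups.

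Keratins moved in both directions. KRT5 and KRT14 are partners in the filaments of basal epithelium. KRT14 was at 10.82, 10.82 and 10.75 on the withdrawal arrays, 6.43, 6.90 and 6.66 on the resistant arrays and 10.17, 10.36 and 10.22 on the parental arrays (at least 13.1-fold higher in withdrawal cells; log2 difference 4.13, SE 0.179, adjusted p = 4.59e-14). KRT5 was at 2.96, 3.47 and 3.69 on the withdrawal arrays, 8.60, 8.85 and 7.87 on the resistant arrays and 3.04, 3.01 and 2.45 on the parental arrays (at least 2.94-fold lower; log2 difference -5.07, SE 0.311, adjusted p = 2.15e-11). KRT16, induced in stressed epithelium, rose by 3.48-fold (adjusted p = 6.4e-10). KRT18, of simple epithelium, fell by 2.11-fold (adjusted p = 2.13e-08), to a level still 1.16 above parental cells on the log2 scale (adjusted p = 1.22e-07). Of 10 keratins, 3 were called higher and 4 lower. Keratins of 1 type are close in sequence, so their single values share the limit given for HLA genes.

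KLK5, a kallikrein protease of skin and mucosa, was at 8.56, 8.54 and 7.84 on the withdrawal arrays and 13.16, 13.33 and 13.29 on the resistant arrays (30.9-fold lower; log2 difference -4.95, SE 0.186, adjusted p = 3.89e-15). KLK10 of the same cluster fell by 4.48-fold (adjusted p = 5.63e-08). SERPINA1, the inhibitor alpha-1 antitrypsin, averaged 3.37 ± 0.178 in withdrawal cells and 9.15 ± 0.199 in resistant cells (SD, n = 3 each), at least 4.81-fold lower (log2 difference -5.78, SE 0.137, adjusted p = 1.04e-18). TMPRSS4, a membrane serine protease, was at 9.87, 10.10 and 9.90 on the withdrawal arrays and 5.80, 5.14 and 5.45 on the resistant arrays (at least 7.35-fold higher; log2 difference 4.50, SE 0.288, adjusted p = 4.47e-11). Of 21 kallikreins, membrane proteases and their inhibitors, 8 were called lower and 5 higher, and 3 were higher without any 1 of withdrawal replicates 1 and 2 and resistant replicates 1 and 3. Of 28 genes of epithelial junctions and polarity, 9 were called higher and 6 lower, or 3 lower with genes near background left out or set to it. CLDN4, a tight junction protein, was at 4.47, 3.60 and 4.76 on the withdrawal arrays and 8.58, 8.51 and 8.80 on the resistant arrays (at least 3.35-fold lower; log2 difference -4.35, SE 0.193, adjusted p = 6.44e-14). CLDN1, of the same family, was near background in both groups, with a log2 difference of 2.64 (adjusted p = 5.79e-09). CLDN7, another claudin, was bright in both and higher by 1.49-fold (adjusted p = 0.00039).

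Genes of amino acid stress and the unfolded protein response were mostly higher where they passed the test. Cells that lack amino acids or fold proteins poorly translate ATF4, which drives genes of amino acid synthesis, import and stress signalling. Of 23 such genes, 13 were called higher and 1 lower, with a median of 0.744 beside 0.00797 over all genes. Of 17 amino acid transporters, 10 were called higher and 1 lower, with a median of 0.734. DDIT4, an inhibitor of the growth kinase mTORC1, was at 16.63, 16.44 and 16.49 on the withdrawal arrays, 13.11, 13.12 and 13.07 on the resistant arrays and 15.89, 15.95 and 15.86 on the parental arrays (10.7-fold higher; log2 difference 3.42, SE 0.641, adjusted p = 0.000305). CHAC1, which degrades glutathione, was at 15.99, 15.94 and 15.86 on the withdrawal arrays, 13.44, 13.74 and 13.56 on the resistant arrays and 15.69, 15.73 and 15.70 on the parental arrays (5.09-fold higher; log2 difference 2.35, SE 0.435, adjusted p = 0.000264). For both, withdrawal and parental values lie close together and above all resistant values. ATF3, a stress-induced transcription factor, was at 9.30, 9.89 and 8.88 on the withdrawal arrays and 7.12, 7.54 and 6.58 on the resistant arrays, above background on 2 of the 3 resistant arrays (log2 difference 2.27, SE 0.41, adjusted p = 0.000194). ALDH1L2, a mitochondrial folate enzyme, was at 9.25, 8.90 and 8.65 on the withdrawal arrays and 4.87, 4.32 and 4.61 on the resistant arrays (at least 3.61-fold higher; log2 difference 4.33, SE 0.17, adjusted p = 8.1e-15). ATF4 itself had a log2 difference of 0.30 and did not pass (adjusted p = 0.203). The member called lower was SDF2L1, a factor of the endoplasmic reticulum (-1.65, adjusted p = 6.6e-05).

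Among the transporters, SLC7A11, the cystine importer, was at 14.32, 14.38 and 14.43 on the withdrawal arrays and 13.13, 13.08 and 13.24 on the resistant arrays (2.34-fold higher; log2 difference 1.23, SE 0.272, adjusted p = 0.00163), and its heavy chain SLC3A2 rose by 1.88-fold (adjusted p = 2.22e-07). SLC1A4, a carrier of small neutral amino acids, rose by 2.21-fold (adjusted p = 0.000317). The amino acid response element, searched as TGATGNAA or its reverse TTNCATCA in the same promoter windows, stood in 2.52% of the 14250 windows in 3.49% of the genes called higher by 2-fold or more, in 1.86% of those called lower by 2-fold or more and in 2.72% of the genes not called. In the stress list it stood in 3 of 10 genes called higher and 1 of 7 not called, and among the transporters in 3 of 7 called higher and 1 of 6 not called. The stretches below show the match in capitals, on the strand of the gene, for 3 genes that rose.
CHAC1: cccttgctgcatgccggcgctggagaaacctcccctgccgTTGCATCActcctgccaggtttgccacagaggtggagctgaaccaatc
ATF3: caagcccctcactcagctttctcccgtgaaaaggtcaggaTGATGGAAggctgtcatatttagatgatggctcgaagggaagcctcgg
HERPUD1: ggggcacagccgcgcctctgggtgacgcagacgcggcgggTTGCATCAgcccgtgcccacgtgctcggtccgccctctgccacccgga
These lie at chr15:40953222-40953309, chr1:212565176-212565263 and chr16:56931926-56932013 on GRCh38.p14, all on the plus strand. HERPUD1, a factor of protein quality control in the endoplasmic reticulum, rose by 2.22-fold (adjusted p = 4.18e-05). The motif is short, and the window is 300 bases, so a gene without a match may carry the element elsewhere.

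**Figure D4:**
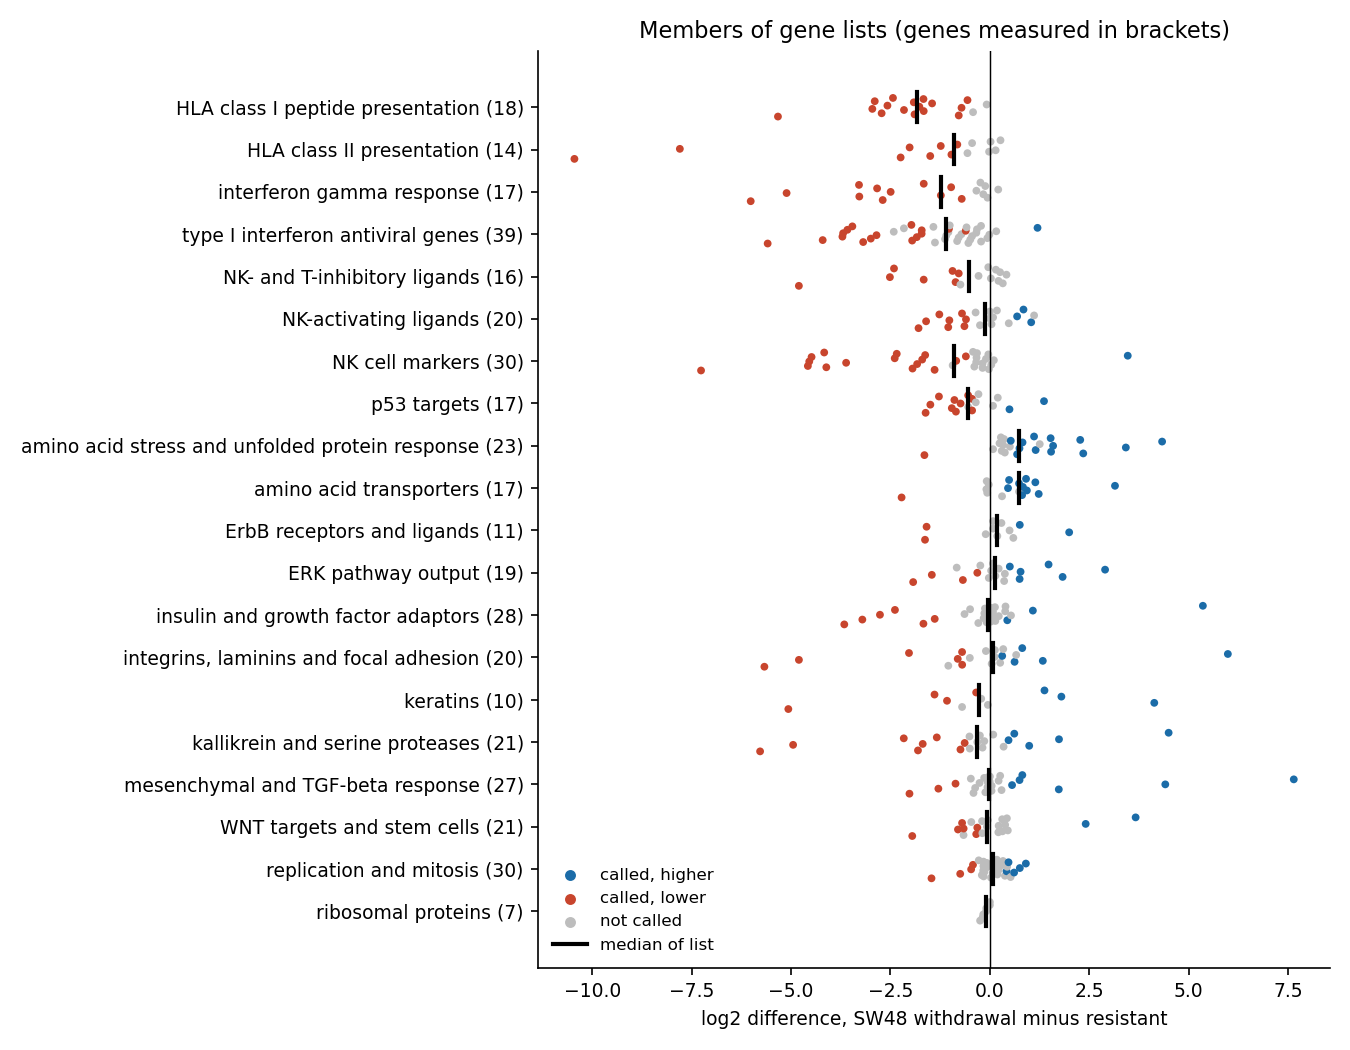
Log2 difference of each member (points) of 20 gene lists, SW48 withdrawal minus resistant, with the list median (black bar) and the number of genes measured in brackets; blue points were called higher, red points lower and grey points were not called. The class I list lies left of 0 with a median of -1.83, the amino acid stress list right of it with 0.744, and the 7 ribosomal proteins lie close to 0.

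Targets of the tumour suppressor p53 were mostly lower where they passed, with 10 of 17 called lower and 2 higher and a median of -0.543. TP53I3, an oxidoreductase, was at 7.05, 6.83 and 7.63 on the withdrawal arrays and 8.65, 9.27 and 8.08 on the resistant arrays (2.82-fold lower; log2 difference -1.50, SE 0.27, adjusted p = 0.000192). RRM2B, a ribonucleotide reductase subunit, was at 10.77, 10.47 and 10.84 on the withdrawal arrays and 11.88, 11.77 and 12.27 on the resistant arrays (2.43-fold lower; log2 difference -1.28, SE 0.16, adjusted p = 1.95e-06). FAS and TNFRSF10B, given above, are also members and moved in opposite directions. CDKN1A, the cell cycle inhibitor p21, did not pass (-0.36, adjusted p = 0.258).

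Of 22 genes of cholesterol and fatty acid synthesis, 6 were called higher (27.3%) and 3 lower (13.6%). The lower share was near the 11.1% of all genes called in each direction. The counts were 3 higher without withdrawal replicate 2 or resistant replicate 1 and 5 lower without withdrawal replicate 1. SREBF1, the transcription factor of fatty acid synthesis, was at 12.51, 13.04 and 12.99 on the withdrawal arrays and 11.22, 11.08 and 11.29 on the resistant arrays (3.14-fold higher; log2 difference 1.65, SE 0.167, adjusted p = 8.67e-08). Its target SCD, a desaturase, was at 16.36, 16.45 and 16.43 on the withdrawal arrays and 14.90, 14.88 and 15.02 on the resistant arrays (2.79-fold higher; log2 difference 1.48, SE 0.26, adjusted p = 0.000142). SQLE, an enzyme of cholesterol synthesis, fell by 1.71-fold (adjusted p = 0.000471). Of 20 genes of hypoxia and glycolysis, 4 were called higher (20%) and 5 lower (25%), with a median of -0.178. The lower count was 3 without withdrawal replicate 1 or 2 or resistant replicate 1, 2 without withdrawal replicate 3, and 3 when the 6 arrays were fitted alone. ALDOC, an aldolase of glycolysis, was at 7.37, 7.50 and 6.91 on the withdrawal arrays and 9.36, 8.81 and 8.58 on the resistant arrays, above background on 2 of the 3 withdrawal arrays (log2 difference -1.66, SE 0.563, adjusted p = 0.0364), and it missed the threshold in 6 alternatives. VEGFA, the growth factor of blood vessels, rose by 2.34-fold (adjusted p = 0.00479) and NDRG1, a gene of hypoxia and stress, by 3.07-fold (adjusted p = 0.000581). Of 21 targets of the antioxidant factor NRF2 and detoxification genes, 5 were called higher (23.8%) and 4 lower (19%), or 3 higher without withdrawal replicate 3. SRXN1, which repairs oxidised peroxiredoxins, rose by 2.32-fold (adjusted p = 4.58e-06), and ALDH3A1, given below, fell furthest.

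Among WNT target and stem cell genes, rises were no more frequent than over all genes, and the 2 called are given first. LGR5, the receptor of R-spondins that marks crypt stem cells, was at 7.61, 7.69 and 8.22 on the withdrawal arrays, 4.06, 4.51 and 3.95 on the resistant arrays and 8.02, 8.57 and 8.10 on the parental arrays (at least 1.69-fold higher in withdrawal cells; log2 difference 3.67, SE 0.212, adjusted p = 7.56e-12). PROM1, the marker CD133, was at 12.73, 12.84 and 12.72 on the withdrawal arrays and 10.19, 10.43 and 10.44 on the resistant arrays (5.31-fold higher; log2 difference 2.41, SE 0.19, adjusted p = 1.5e-09). Of 21 WNT target and stem cell genes, these 2 were called higher (9.52%) and 6 lower (28.6%), with a median of -0.0748. Over all genes, 11.1% were called in each direction. The lower count was 3 when the 6 arrays were fitted alone. One of the falls was SOX9, a crypt transcription factor (log2 difference -0.66, adjusted p = 0.0067). Of 30 genes of replication and mitosis, 5 were called higher and 4 lower, or 2 higher without resistant replicate 1 and 3 higher without withdrawal replicate 2 or resistant replicate 2 or 3. CDC6 and MCM6, which license replication origins, had log2 differences of 0.91 and 0.75 (adjusted p = 8.96e-05 and 0.0462), and MCM6 missed the threshold in 9 alternatives. CCNE1, the cyclin of S phase entry, was at 8.35, 8.53 and 7.47 on the withdrawal arrays and 9.47, 9.83 and 9.45 on the resistant arrays (2.77-fold lower; log2 difference -1.47, SE 0.265, adjusted p = 0.000196). MKI67, the proliferation marker, did not pass (-0.28, adjusted p = 0.424).

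Withdrawal cells were set against parental cells as well. This contrast shares the withdrawal arrays with the comparison above, so its values are given beside it and not as support. It called 722 genes (4.08%), 315 higher (1.78%) and 407 lower (2.3%) in withdrawal cells, while resistant minus parental called 4014 (22.7%). Pearson's r between withdrawal and parental arrays was 0.9932 to 0.9941. The count of 722 is unstable: it was 380 in a fit of the 9 SW48 arrays, and 474 or 448 without withdrawal replicate 2 or 3.

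Some genes in withdrawal cells lay beyond both other groups, on the same side. DSG3, a desmosomal cadherin, was at 8.23, 8.56 and 7.76 on the withdrawal arrays, 3.58, 3.31 and 3.93 on the resistant arrays and 5.58, 4.68 and 4.11 on the parental arrays (4.58 against resistant and 3.39 against parental cells, adjusted p = 4.44e-12 and 1.98e-08). It was near background on all resistant and parental arrays, so its rise over resistant cells is bounded at 2.15-fold or more. CDH11 was at 8.88, 8.96 and 9.10 on the withdrawal arrays, 4.53, 4.32 and 3.79 on the resistant arrays and 6.57, 6.08 and 6.56 on the parental arrays (2.58 against parental cells, adjusted p = 2.81e-07). DHRS2 was at 10.93, 10.77 and 10.56 on the withdrawal arrays, 4.34, 4.42 and 5.12 on the resistant arrays and 8.80, 8.69 and 8.42 on the parental arrays (2.12 against parental cells, adjusted p = 1.09e-05). Withdrawal values of all of these lie above every resistant and parental value. PDE4D, a phosphodiesterase for cyclic AMP, SLC16A4, a monocarboxylate carrier, and RASGRP1, an activator of RAS, followed with 1.89, 2.45 and 1.66 against parental cells. CDH11 and SLC16A4 were each above background on 1 of the 3 parental arrays and on 0 resistant arrays.

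On the low side, ALDH3A1, an aldehyde dehydrogenase, was at 5.15, 4.65 and 5.17 on the withdrawal arrays, 7.81, 7.44 and 8.23 on the resistant arrays and 10.79, 10.85 and 10.37 on the parental arrays, so that the 3 groups form 3 separate levels with withdrawal cells near background (-2.84 against resistant and -5.68 against parental cells, adjusted p = 8.31e-09 and 1.1e-12). NT5E, the ectoenzyme CD73 that makes adenosine, was at 10.86, 11.03 and 10.95 on the withdrawal arrays, 14.05, 14.14 and 14.10 on the resistant arrays and 13.06, 13.19 and 13.11 on the parental arrays (-3.15 against resistant and -2.17 against parental cells, adjusted p = 3.07e-08 and 6.93e-05). EHF, an epithelial ETS factor, was at 12.75, 12.60 and 12.76 on the withdrawal arrays, 14.82, 14.76 and 14.93 on the resistant arrays and 14.53, 14.47 and 14.61 on the parental arrays (-2.13 and -1.83, adjusted p = 4.09e-06 and 0.000289). Withdrawal values of NT5E and EHF lie below all values of the other groups. The proline transporter SLC6A20, the calcium-binding S100A16 and the growth factor-like IGFL2 were also lower than in both, with -3.22, -2.06 and -2.02 against parental cells.

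The same contrast in LIM1215 and Caco2 uses other arrays. It called 4942 genes (27.9%) in LIM1215 and 4364 (24.7%) in Caco2. Of the SW48 calls, 1189 went the same way in LIM1215, which is 30.3% of the SW48 list and 24.1% of the LIM1215 list, and 495 went the opposite way. With Caco2, 999 went the same way, 25.5% of the SW48 list and 22.9% of the Caco2 list, and 494 the opposite way. In all 3 lines, 179 genes were called higher (9.16% of the SW48 rises) and 245 lower (12.5% of the SW48 falls). CREB5, GRB10 and NIBAN1 are among the shared rises, NIBAN1 with 1.41 in LIM1215 and 4.98 in Caco2 (adjusted p = 0.00862 and 9.43e-10). In LIM1215, CREB5 averaged 2.67 in resistant and 4.08 in withdrawal cells, and NIBAN1 4.88 and 6.29. These means lie under the background range of the SW48 arrays, so a rise in measured level is uncertain there. The background of the LIM1215 and Caco2 arrays is not given here. CHAC1 rose in all 3 lines, by 2.35 in SW48, 2.34 in LIM1215 and 2.75 in Caco2. So did DDIT4, with 3.42, 3.36 and 3.17. PSMB9 and LCP1 are among the shared falls, PSMB9 with -5.33 in SW48, -2.59 in LIM1215 and -6.75 in Caco2. Of the 18 class I genes, 14 were called lower in LIM1215 and 17 in Caco2.

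The difference between lines was tested in the same fit. It passed for 4087 genes against LIM1215 (23.1%) and 4231 against Caco2 (23.9%). Of the 30 genes with the largest differences in SW48, 28 differed from LIM1215 and 26 from Caco2. The rise of PTPN13 was 7.66 larger in SW48 than in LIM1215 and 8.17 larger than in Caco2 (adjusted p = 5.79e-14 and 2.07e-14). In LIM1215 PTPN13 was bright in both groups, with means of 11.85 in resistant and 12.49 in withdrawal cells. In Caco2 its means were 2.72 and 2.85, under the background range of the SW48 arrays. ANO1 fell in SW48 and rose in both other lines, by 2.00 in LIM1215 and 1.37 in Caco2 (adjusted p = 0.000939 and 0.0193). HLA-DRA fell in LIM1215 as well, with a log2 difference of -10.16 (adjusted p = 2.87e-19). In Caco2 it did not pass, with 0.17 (adjusted p = 0.658; difference from SW48 -7.97, adjusted p = 2.07e-14). Its Caco2 means were 2.16 in resistant and 2.34 in withdrawal cells, also under that range. MET fell in SW48 and rose by 0.40 in LIM1215 (adjusted p = 0.00687; difference -3.61, adjusted p = 6.78e-14). EGFR rose by 1.17 in Caco2 (adjusted p = 5.15e-07) and did not pass in LIM1215 (0.29, adjusted p = 0.128). Its rise was larger in SW48 than in either (adjusted p of the difference = 6.31e-07 for LIM1215 and 0.00239 for Caco2).

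**Figure D5:**
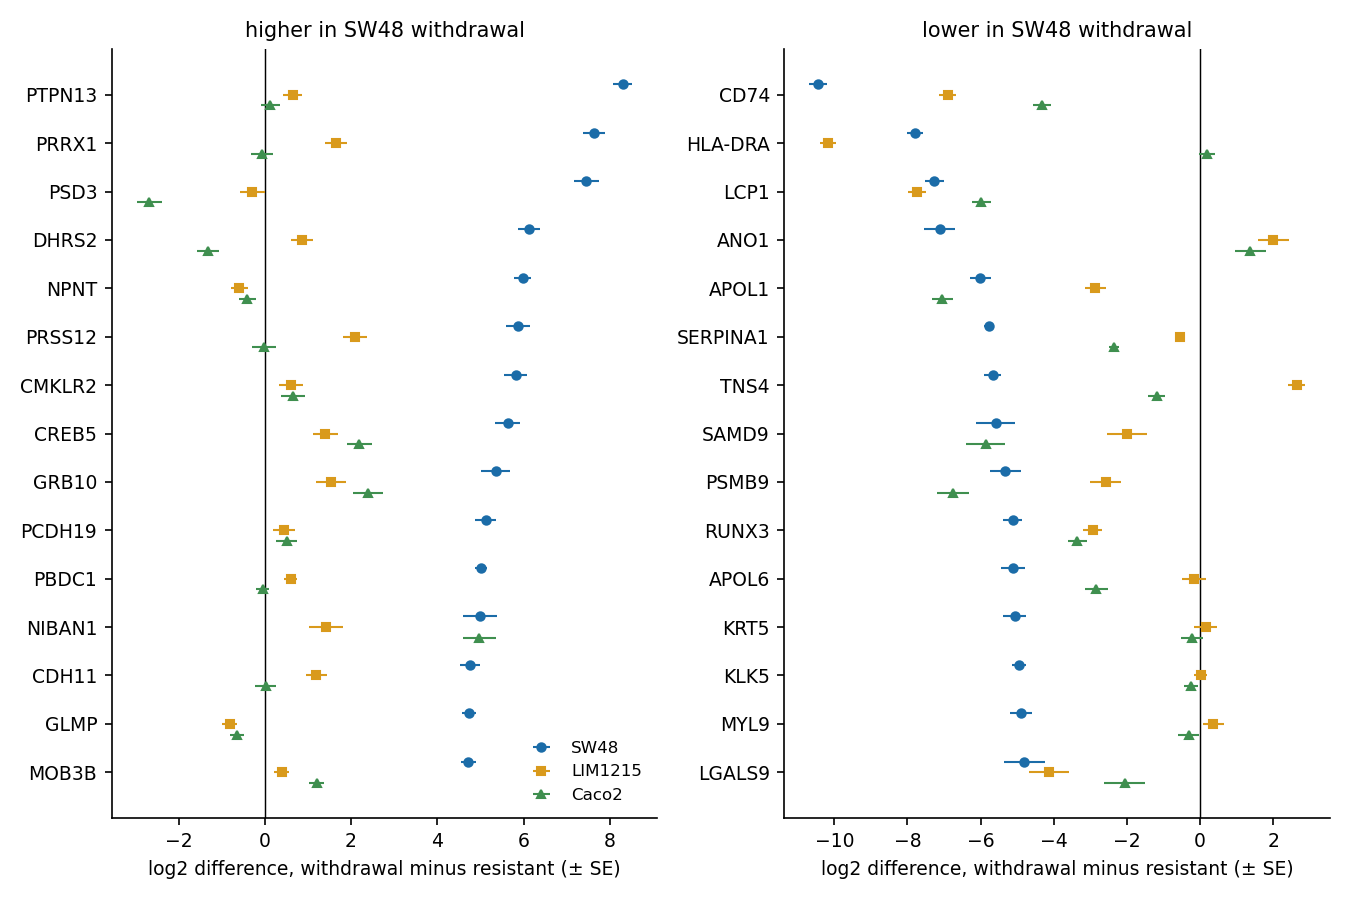
Log2 difference of withdrawal minus resistant cells (points, with SE bars from the fit) in SW48, LIM1215 and Caco2 for the 15 genes with the largest rise in SW48 (left) and the 15 with the largest fall (right). NIBAN1 rose by 4.99 in SW48 and 4.98 in Caco2, LCP1 fell in all 3 lines, and PTPN13, NPNT, KRT5 and KLK5 stay within 1 of 0 in the other lines. KRT5 and KLK5 in both other lines, and PTPN13 in Caco2, average under the background range of the SW48 arrays in both groups.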

How the data were processed

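Per the labels, total RNA (250 ng) from cell pellets was amplified and hybridised to Affymetrix whole-transcript arrays of 1 colour. The authors deposited 1 value per probe set and array, between 1.09 and 18.78, read here as log2 intensities because of that range and otherwise used as deposited. The sources used here name no software, background correction or normalization. The platform annotation gave 1 gene name to 17709 of 21448 transcript probe sets and none to 3739. Where several probe sets shared a name (20 genes), the one with the highest mean was kept, which left 17687 genes.

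With limma (version 3.58.1; R 4.3.3; data.table, version 1.17.8), a mean for each of the 9 groups was estimated from the 27 arrays together. The moderated tests had 18 residual and 4.12 prior degrees of freedom, were two-sided and were Benjamini-Hochberg adjusted over all genes in each contrast. The code was tested on simulated data. Promoter sequences are from RefSeq (GRCh38.p14). Python 3.11.15, pandas 2.3.3 and matplotlib 3.10.9 made the searches and figures.

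The members and the 36 gene lists were chosen with earlier results of these data known. Named genes are the 15 called genes with the largest difference in each direction whose groups do not overlap and whose higher mean is above background, up to 4 of each list, 5 in each direction for each difference between lines, 6 in each direction beyond both other groups, and EGFR. Other list members, and the promoters shown, were picked after their values were seen. Alternatives changed the arrays fitted, the normalization, the centring, the treatment of dim values, the features tested, the moderation and the replicate block, or left out 1 array. The number of arrays limits the precision.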

Additional observations from a re-analysis of the deposited data

Results flagged for a closer look

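The response to withdrawal differed between the lines in the test of that difference. It passed for 4087 genes between SW48 and LIM1215 and for 4231 between SW48 and Caco2, of 17687 tested. The values below are the SW48 log2 difference (withdrawal minus resistant) less that of the other line.

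PTPRC, the leukocyte phosphatase CD45, differed by 9.23 from LIM1215 and 10.38 from Caco2. It rose in SW48 (3.47) and fell in LIM1215 (-5.76) and Caco2 (-6.91). In LIM1215, PTPRC averaged 8.45 in resistant, 2.69 in withdrawal and 2.775 in parental cells. In Caco2 the means were 9.25, 2.34 and 2.455. In both lines the withdrawal and parental means lie under the background range of the SW48 arrays. PSD3 differed by 7.74 from LIM1215 and 10.13 from Caco2, where it fell by 2.68 on the log2 scale. PTPN13 differed by 7.66 and 8.17. NPNT differed by 6.57 from LIM1215 and PTPRO, a receptor phosphatase, by 6.22, with PTPRO at 3.69 in SW48 and -2.53 in LIM1215. PRRX1 differed by 7.70 and DHRS2 by 7.44 from Caco2. In Caco2, PRRX1 averaged 3.54 in resistant and 3.48 in withdrawal cells, and PTPN13 2.72 and 2.85. These means lie under the background range of the SW48 arrays.

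On the low side, ANO1 differed by -9.12 from LIM1215 and -8.49 from Caco2, and TNS4 by -8.30 from LIM1215, where it rose by 2.63. ARHGAP29 differed by -7.30 from LIM1215, LIF, a cytokine, by -6.94, and FOXQ1, a forkhead factor, by -6.54. All of these fell in SW48 and rose in LIM1215, LIF with -4.24 and 2.70. HLA-DRA differed by -7.97 from Caco2, CD74 by -6.13, KRT5 by -4.84 and SULF2, a sulfatase of heparan sulfate, by -5.71, with SULF2 at -1.14 in SW48 and 4.58 in Caco2. In Caco2, HLA-DRA averaged 2.16 in resistant and 2.34 in withdrawal cells, and KRT5 2.31 and 2.09, under the background range of the SW48 arrays.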

How the results depend on the processing

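SW48 withdrawal minus resistant called 3296 to 3528 genes with 1 array left out and 3147 to 4430 under the other alternatives, with 48.3% to 51.1% of calls higher. The count at 2-fold or more ran from 1201 to 1358 apart from 768 with values under background set to it, a setting that moves the median of all genes to -0.197. SW48 withdrawal minus parental, 722 genes, gave 380 with the 9 SW48 arrays alone, 381 with quantile normalization within them and 1099 without LIM1215 parental replicate 3 in the shared spread. It gave 448 to 736 with 1 array left out. The cause was not tested. Of 2767 values of 175 named genes under the alternatives, 2681 kept direction and call, 63 kept direction and missed the threshold, and 14 newly passed it (CD274, IFIT1, IFNGR1, IFNGR2 and CDKN1A). The other 9 changed sign. With values under background set to it, these were ETV1 (-0.197), SLC7A2 (-0.076), GPX2 (-0.197), CLDN1 (-0.197), SKIL (-0.004) and BCL11B (-0.197), which lie at or near background in both groups. With 1 array left out, EPCAM ran from -0.097 to 0.022 and FOSL1 from -0.056 to 0.029, neither passing. MCM6 missed the threshold in 9 alternatives and ALDOC in 6. The replicate numbers are shared between groups, but deviations of same-numbered arrays from their group means had correlations of 0.019, 0.019 and -0.006. So no shared deviation by number was seen. These values cannot show whether same-numbered arrays were handled together. With the replicate block, 3755 genes were called, of which 3632 were shared with the 3920, and 173 of 175 named genes kept their call. Signal over background limits genes near the negative controls, for which a difference in deposited values need not be one in measured level.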

Other observations

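Genes called by 2-fold or more were spread over all chromosomes, at different rates. On chromosome 19, 21 of 1256 genes were higher (1.67%) and 60 lower (4.78%) in withdrawal cells. On chromosome 4, 36 of 692 were higher (5.2%) and 13 lower (1.88%), and on chromosome 18, 17 of 250 were higher (6.8%) and 5 lower (2%). Over all chromosomes, 3.4% of genes were higher and 3.45% lower by that rule. The median log2 difference was -0.0267 on chromosome 19, -0.000573 on chromosome 4 and 0.0223 on chromosome 18.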
